A study of Mus musculus with 6 samples.

Results

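The 10 genes described here encode core components and feedback regulators of the Wnt/beta-catenin pathway: Lgr5, Znrf3, Rnf43, Nkd1, Axin1, Axin2, Apc, Gsk3b, Ctnnb1 and Tcf7l2. They were chosen by symbol, and all 10 were found among the 22068 gene symbols listed for every library. Without a Wnt ligand, a destruction complex built on axin and APC lets the kinase GSK3 mark beta-catenin for degradation. A Wnt bound to Frizzled and LRP co-receptors disables that complex, and beta-catenin then enters the nucleus and acts with TCF and LEF factors. In adult liver this signalling is known to be strongest in hepatocytes around the central vein, where it maintains the pericentral genes. Several of its own brakes and receptors, among them Axin2, Nkd1, Rnf43, Znrf3 and Lgr5, are known as target genes of the pathway.

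Polyadenylated RNA from mouse liver was sequenced in 6 libraries, 3 from livers labelled as lacking both Mst1 and Mst2 (dKO) and 3 from control livers. All mice were C57BL/6 and 6 weeks old, and by the labels all carried a null Mst1 and a loxP-flanked Mst2, so the controls are also Mst1 null by their labels. The dKO mice carried an albumin-Cre transgene (alb-Cre+/+), which the controls (alb-Cre-/-) did not. Mst1 and Mst2, written Stk4 and Stk3 in mouse nomenclature, are the Hippo kinases that restrain the coactivators YAP and TAZ. The albumin promoter is active in hepatocytes and in the precursors they share with bile duct cells, so other liver cells are expected to keep Mst2. Replicate numbers in the labels are not tied to separate animals, so every p-value here reflects how much these libraries varied, and that variation may be technical. Values are RPKM, reads scaled to the length of the gene and the size of the library, so levels may be compared between genes. Each log2 change is the dKO mean minus the control mean of log2(RPKM + 1), a scale that shrinks changes of weakly expressed genes, and a gene was called at a limma adjusted p under 0.05.

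RPKM summed to 324034 to 352678 in dKO and 364571 to 368246 in control libraries, and the spacing of low values gave estimated depths of 21.0 to 24.4 M reads in dKO and 17.2 to 25.1 M reads in control libraries. Stk3 measured 5.13, 4.25 and 5.32 RPKM in dKO and 6.00, 5.42 and 5.20 RPKM in control livers. Stk4, labelled null in both groups, measured 5.84, 4.93 and 5.76 RPKM in dKO and 5.50, 4.69 and 4.66 RPKM in control livers, and so was not low in any library. Neither gene passed the test (limma adjusted p = 0.424 and 0.487 for Stk3 and Stk4), and a value per gene cannot show whether a part of it is deleted. Of 8 hepatocyte markers 3 were called lower (Tat, Ttr and Serpina1a) and 0 higher, with a median log2 change of -0.34. Their sum, which is mostly Alb, was 40950 to 47592 RPKM in dKO and 47415 to 61498 RPKM in control libraries. Of 8 cholangiocyte and progenitor markers 6 could be tested and 6 were called higher, and the 8 summed to 359 to 1011 RPKM in dKO, highest in replicate 3, and 36.9 to 86.95 RPKM in control libraries. The 6 proliferation markers, of which 3 were called higher, summed to 54.9 to 59.4 RPKM in dKO and 33.0 to 38.6 RPKM in control libraries. On the first principal component dKO replicate 3 stood apart at 49.0, with the other dKO libraries at 19.2 and 20.3 and the controls at -35.7 to -25.4. The median log2 change of all 11062 tested genes was 0.23. Median-ratio scaling, which sets the typical gene to no change, moved that median by 0.24, so changes are also given relative to it.

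Of the 10 components, 1 was called lower in dKO liver, the receptor gene Lgr5, and 0 were called higher. Over all tested genes 19.9% were called, 2.17% lower and 17.8% higher. The other 9 did not pass the test, with Ctnnb1, at 1.47-fold, closest to it on the higher side. The median log2 change of the 10 was -0.06, against 0.23 over all tested genes, and 9 of the 10 lay under that median. After median-ratio scaling 2 were called lower (Lgr5 and Tcf7l2) and 0 higher, where 5.55% and 7.89% of all tested genes were. The values of the groups did not overlap for 2 genes that were higher in dKO, Ctnnb1 and Gsk3b, and 1 that was lower, Lgr5. Of all tested genes 45.1% had groups that did not overlap, made up of 38.3% that were higher in dKO and 6.73% that were lower. All 10 components had a mean of at least 1 RPKM over the 6 libraries and entered the test, Lgr5 with a dKO mean just under that level.

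**Figure D1:**
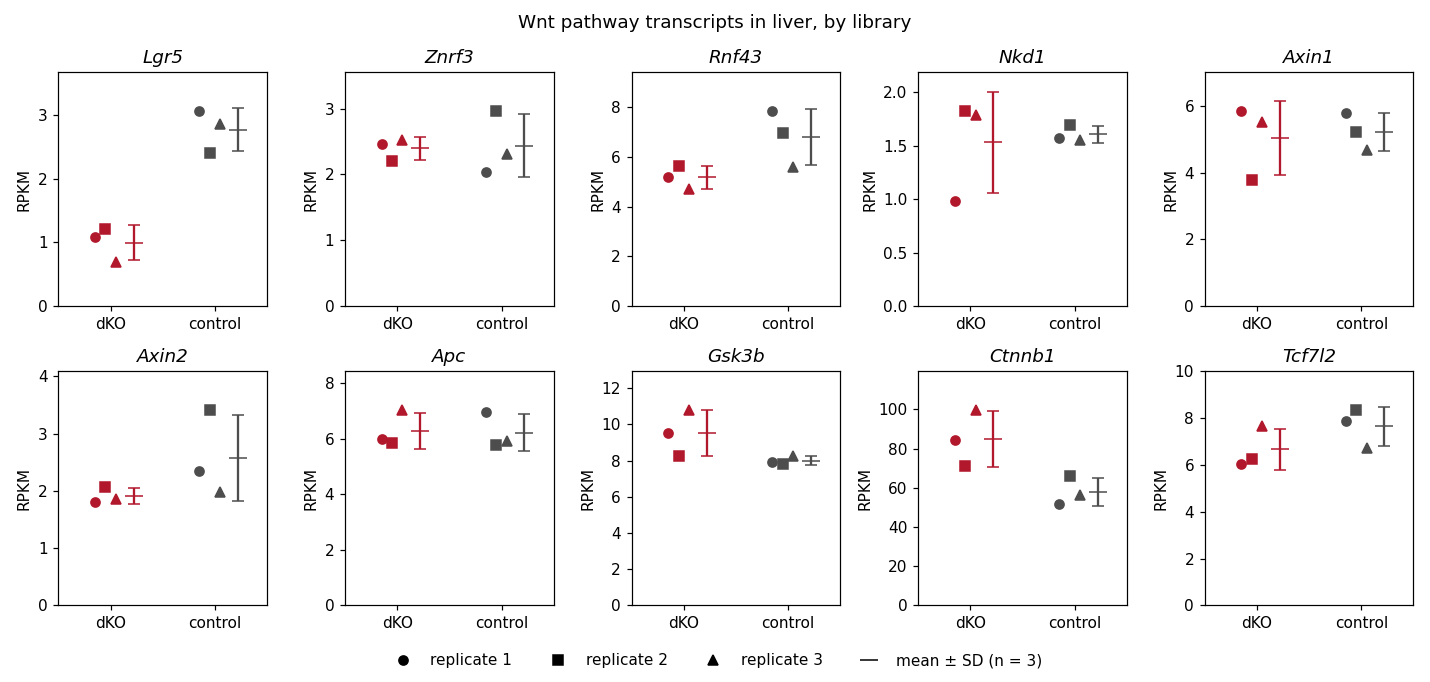
RPKM (vertical axes, each from 0) of the 10 components in each library, dKO left and control right, with 1 symbol per replicate and the mean ± SD (n = 3) beside them. Lgr5 lay at 0.687 to 1.21 RPKM in dKO and 2.40 to 3.06 RPKM in control libraries, and Ctnnb1 at 71.2 to 99.6 RPKM in dKO and 51.8 to 65.8 RPKM in control libraries.

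Lgr5 encodes a surface receptor for R-spondins, secreted proteins that strengthen the response to Wnt ligands. It measured 1.08, 1.21 and 0.687 RPKM in dKO replicates 1, 2 and 3, against 3.06, 2.40 and 2.85 RPKM in control replicates 1, 2 and 3. Every dKO library lay below every control library, with dKO replicate 3 the lowest. The mean fell to 0.993 ± 0.273 RPKM in dKO liver, against 2.77 ± 0.338 RPKM in control liver (SD, n = 3 each), or 0.359 of the control level. Its log2 change was -0.92 ± 0.17 (SE), at a limma adjusted p of 0.00926, and 1.46% of the tested genes had a lower value. With 1 library left out the log2 change ran from -1.01 to -0.81 and the limma adjusted p from 0.0139 to 0.0415, so the call held in each of the 6 fits. From its longest annotated coding transcript of 4714 bases and the estimated depths, Lgr5 rested on about 79 to 284 reads per library, for which counting alone gives an error of 11.25% at the lowest. In bulk liver, fewer cells that express a gene and less of its RNA per cell cannot be told apart. With Lgr5, 3 of 8 hepatocyte markers were lower and 6 of 6 tested cholangiocyte markers higher in dKO liver. Of all tested genes 2.17% were called lower and 17.8% higher. The part of either marker group in the decrease of Lgr5 was not tested.

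Lgr4, the related R-spondin receptor gene, was the more abundant of the pair. It stood at 11.8, 9.82 and 11.95 RPKM in dKO and 10.7, 13.1 and 11.8 RPKM in control libraries, and the groups overlapped (log2 change -0.08 ± 0.13 (SE), limma adjusted p = 0.666). Rspo3, the R-spondin gene of central vein endothelium, measured 1.95, 1.74 and 2.24 RPKM in dKO and 2.67, 3.32 and 2.75 RPKM in control libraries. These groups did not overlap, at a limma adjusted p of 0.0878, which became 0.0187 after median-ratio scaling. Pecam1, Cdh5 and 6 other endothelial genes, Rspo3 included, together summed to 59.7 to 66.3 RPKM in dKO and 57.9 to 60.6 RPKM in control libraries. That sum is mostly Pecam1, Cdh5, Stab2 and Kdr, so it cannot show a change of the weaker central vein genes in it. Of the 7 that could be tested 1, the ligand gene Wnt2, was called lower and 0 higher, beside 2.17% and 17.8% of all tested genes.

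Znrf3 and Rnf43 encode related membrane ubiquitin ligases that remove Frizzled receptors from the cell surface and are themselves held back by R-spondin and its receptors. Rnf43 measured 5.20, 5.62 and 4.71 RPKM in dKO and 7.85, 6.97 and 5.604 RPKM in control libraries. Its dKO mean was 0.760 of the control mean, and the groups overlapped only in that dKO replicate 2 lay just above the lowest control. The log2 change of -0.33 ± 0.15 (SE) did not pass the test (limma adjusted p = 0.135), and it was -0.57 with a limma adjusted p of 0.0511 after median-ratio scaling. Znrf3 measured 2.46, 2.201 and 2.52 RPKM in dKO and 2.03, 2.96 and 2.32 RPKM in control libraries, with dKO values inside the control range. Its log2 change was -0.01 with a 95% interval of -0.36 to 0.34, and its limma adjusted p was 0.964.

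Nkd1 encodes an inhibitor that binds Dishevelled, the protein that passes the signal on from Frizzled. It was the lowest of the 10 by mean level, at 0.985, 1.83 and 1.79 RPKM in dKO and 1.57, 1.70 and 1.55 RPKM in control libraries. The controls lay close together, while dKO replicate 1 lay below all of them and dKO replicates 2 and 3 above. Its log2 change was -0.06 with a 95% interval of -0.47 to 0.35 (limma adjusted p = 0.824), and it was 0.11 without dKO replicate 1.

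Axin1 and Axin2 encode the scaffolds of the destruction complex, Axin1 as the constant form and Axin2 as the form induced by the pathway. Axin2 measured 1.80, 2.07 and 1.85 RPKM in dKO and 2.34, 3.41 and 1.97 RPKM in control libraries. The dKO libraries were close together, with replicates 1 and 3 below every control and replicate 2 just above the lowest, and control replicate 2 stood above the rest. The log2 change of -0.28 ± 0.18 (SE) did not pass (limma adjusted p = 0.271), and without control replicate 2 it was -0.12. Under quantile normalization it was -0.63 with a limma adjusted p of 0.047, within a range of 0.047 to 0.626 over 17 alternatives. Axin1 measured 5.86, 3.78 and 5.52 RPKM in dKO and 5.80, 5.22 and 4.67 RPKM in control libraries, so that dKO libraries lay on both sides of the controls. Its log2 change of -0.06 had a 95% interval of -0.44 to 0.33, and its limma adjusted p was 0.823.

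Promoter windows from RefSeq, 250 bases before to 50 after a transcript start on GRCm38.p6, were available for 6 of the 10 components (9 windows). They were searched on both strands for CTTTGAT and CTTTGAA, core letters bound by TCF and LEF factors, and for CATTCC, the core letters bound by the TEAD partners of YAP. The 9 windows held 0 matches of either kind, where 8.65% of all 32851 windows held a TCF letter match and 14.7% a TEAD letter match. Lgr5, the component called lower, had no window and was not searched, nor were Axin1, Apc and Znrf3. CTTTGAT and CTTTGAA differ in their last letter, neither overlaps CATTCC, and the lack of a match says only that the letters are not in this window. The windows of Axin2 (chr11:108920099-108920398, plus strand) and Ctnnb1 (chr9:120933150-120933449, plus strand) are given as the feedback scaffold and the transducer, beside that of Lect2 (chr13:56548489-56548788, minus strand), a hepatocyte target of beta-catenin described further on. Each is written in the direction of transcription, and capitals mark a TCF letter match.
Axin2: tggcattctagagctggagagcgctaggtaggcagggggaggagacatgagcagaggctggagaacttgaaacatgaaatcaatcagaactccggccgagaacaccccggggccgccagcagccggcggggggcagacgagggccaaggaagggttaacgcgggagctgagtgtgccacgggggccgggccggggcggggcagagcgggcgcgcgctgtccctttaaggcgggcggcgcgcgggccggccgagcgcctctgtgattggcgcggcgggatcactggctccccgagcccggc
Ctnnb1: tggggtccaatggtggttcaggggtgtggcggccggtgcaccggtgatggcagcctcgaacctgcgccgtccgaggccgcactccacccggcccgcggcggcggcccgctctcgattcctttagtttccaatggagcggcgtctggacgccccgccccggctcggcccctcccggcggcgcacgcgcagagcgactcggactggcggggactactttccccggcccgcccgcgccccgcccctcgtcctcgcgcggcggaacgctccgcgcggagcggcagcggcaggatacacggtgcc
Lect2: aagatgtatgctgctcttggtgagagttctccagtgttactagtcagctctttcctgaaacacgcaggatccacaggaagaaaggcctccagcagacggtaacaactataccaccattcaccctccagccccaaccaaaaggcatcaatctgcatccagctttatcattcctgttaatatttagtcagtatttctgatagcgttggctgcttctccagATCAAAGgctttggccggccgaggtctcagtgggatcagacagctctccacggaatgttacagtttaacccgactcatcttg
The Axin2 window was 70% G and C with 31 CG dinucleotides and the Ctnnb1 window 75.3% with 46, while the Lect2 window was 48% with 7. The Lect2 match is CTTTGAT read on the opposite strand, and that window also held 2 TEAD letter matches. The windows of Tcf7, Glul and Wnt2, other genes called lower that were searched in the same way, held 0 matches of either kind. Notum, Tbx3, Rhbg and Gulo, also called lower, had no window. Lect2 is shown as the one with matches among those searched.

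Apc and Gsk3b encode the large scaffold and a kinase of the destruction complex. Apc measured 5.97, 5.83 and 7.02 RPKM in dKO and 6.97, 5.78 and 5.89 RPKM in control libraries, with 1 high library in each group. Its log2 change was 0.01 with a 95% interval of -0.29 to 0.31 (limma adjusted p = 0.952), and it was -0.24 after median-ratio scaling. Gsk3b measured 9.51, 8.28 and 10.8 RPKM in dKO and 7.94, 7.79 and 8.26 RPKM in control libraries. The groups nearly touched but did not overlap, and the dKO libraries spread wider, with an SD of 1.255 RPKM against 0.236 RPKM in controls. The log2 change of 0.22 ± 0.13 (SE) did not pass (limma adjusted p = 0.235) and lay beside the median of all genes, and it was -0.04 after median-ratio scaling.

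Ctnnb1 encodes beta-catenin itself, the protein that carries the signal to the nucleus and also links cadherins to the actin cytoskeleton. It measured 84.4, 71.2 and 99.6 RPKM in dKO and 51.8, 65.8 and 56.5 RPKM in control libraries. Every dKO library lay above every control library, with dKO replicate 3 the highest. The means were 85.1 ± 14.2 RPKM in dKO and 58.0 ± 7.14 RPKM in control liver (SD, n = 3 each), and the log2 change was 0.54 ± 0.17 (SE). The limma adjusted p was 0.0559, which misses the threshold. Ctnnb1 passed in 2 of 17 alternatives, at 0.0396 without control replicate 2 and at 0.00454 with sample weights. Sample weights also raised the increases over all tested genes from 1965 to 4133. Without any 1 of the other libraries the limma adjusted p was 0.0508 to 0.164. After median-ratio scaling it was 0.259, with a log2 change of 0.25. Set against the median log2 change of 0.23 over all genes, 80.3% of the tested genes had a lower log2 change than Ctnnb1.

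Tcf7l2 encodes the main TCF partner of beta-catenin in hepatocytes. It measured 6.06, 6.26 and 7.68 RPKM in dKO and 7.87, 8.35 and 6.74 RPKM in control libraries, and the groups overlapped through dKO replicate 3 and control replicate 3. The log2 change of -0.18 ± 0.14 (SE) did not pass (limma adjusted p = 0.368). After median-ratio scaling it was -0.43 with a limma adjusted p of 0.0432, and with that scaling and any 1 library left out it was not called (limma adjusted p of 0.061 to 0.125).

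**Figure D2:**
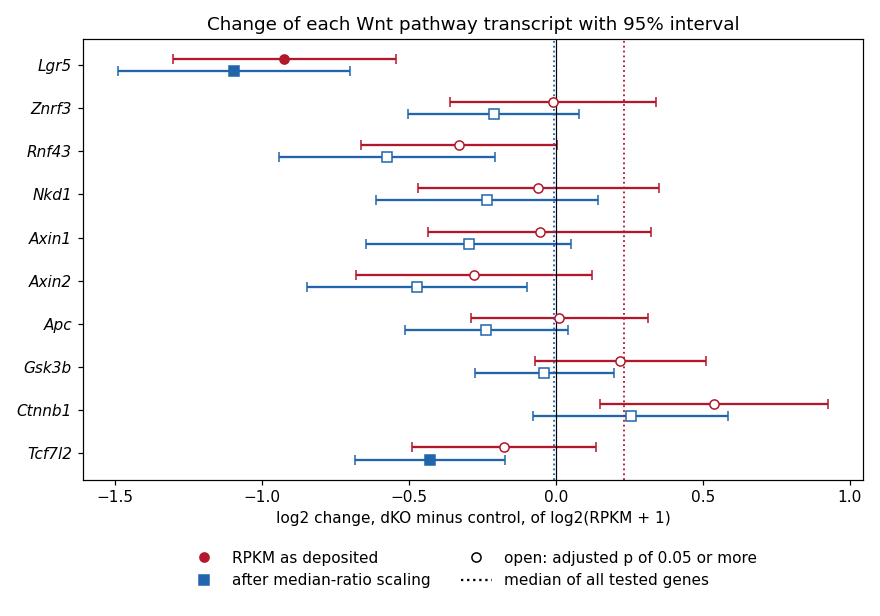
Log2 change (dKO minus control, horizontal axis) of each component with its 95% interval, for RPKM as deposited (circles) and after median-ratio scaling (squares), filled where the limma adjusted p was under 0.05. The dotted lines mark the median of all tested genes on each scale, and Lgr5 lay at -0.92 and -1.09 with both intervals below 0.

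By mean level over the 6 libraries Ctnnb1 was the highest, at 71.5 RPKM, and its values overlapped those of no other component. Gsk3b (8.76 RPKM), Tcf7l2 (7.16 RPKM), Apc (6.24 RPKM), Rnf43 (5.99 RPKM) and Axin1 (5.14 RPKM) followed, and each overlapped its neighbour in that order. Znrf3 (2.42 RPKM), Axin2 (2.24 RPKM), Lgr5 (1.88 RPKM) and Nkd1 (1.57 RPKM) were the lowest and again overlapped. Lgr5 exceeded Nkd1 in 1 of 3 dKO and 3 of 3 control libraries, and Rnf43 exceeded Axin1 in 1 of 3 dKO and 3 of 3 control libraries. Ratios inside a library do not depend on its scaling, and 3 were compared. Ctnnb1 was 14.1, 12.2 and 14.2 times Apc in dKO and 7.43, 11.4 and 9.58 times Apc in control libraries. These ratios did not overlap, and the log2 difference of 0.53 had a two-sided exact permutation p of 0.1, the smallest that 3 against 3 libraries allow (0.3 adjusted over the 3 ratios). The Rnf43 to Znrf3 ratio was 2.11, 2.55 and 1.87 in dKO and 3.87, 2.35 and 2.42 in control libraries, with overlap and an exact permutation p of 0.3 (0.4 adjusted). The Axin2 to Axin1 ratio was 0.308, 0.548 and 0.335 in dKO and 0.404, 0.653 and 0.422 in control libraries, also with overlap (exact permutation p = 0.4, 0.4 adjusted).

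Likeness was measured as the root mean square difference of log2(RPKM + 1) values over the 6 libraries, each gene centred on its own mean. Nearest to Ctnnb1 among 11061 tested genes were Nono, an RNA-binding protein gene (0.0277), Klraq1 (0.031) and Zfp260, a zinc finger gene (0.0373). Nearest to Axin2 were Cyc1, a respiratory chain gene (0.0644), Cyp2g1, a cytochrome gene (0.069), and Ppap2a, a lipid phosphatase gene (0.0702). For Lgr5, taken up after its values were seen, the nearest were Nrn1 (0.0903), Slc25a45 (0.0903) and Tcf7 (0.0983).

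Beyond the 10 components, 136 further genes of the pathway and its targets were followed, of which 87 could be tested. Of these 16 were called higher (18.4%) and 12 lower (13.8%), where 17.8% and 2.17% of all tested genes were. The lists that hold them were chosen with earlier results of these data known, so the shares are no independent support. The share of higher calls was near that of all genes. After median-ratio scaling 6 of 87 were called higher and 14 lower, where 7.89% and 5.55% of all tested genes were. With 1 library left out 4 to 16 were higher and 7 to 11 lower, with 4 and 7 without control replicate 1. The other low counts of increases were 7 without control replicate 3 and 9 without dKO replicate 1 or dKO replicate 3. The median log2 change of the 87 was 0.23, as over all genes. Of the 12 that fell, 9 stood on the list of hepatocyte targets of beta-catenin, and the other 3 were Notum, Tcf7 and Wnt2.

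Among the 19 Wnt ligand genes 3 could be tested, 1 was called higher and 1 lower, and 4 were listed at 0 in every library. Wnt2, a ligand gene of liver endothelium, fell to 1.32, 0.954 and 1.09 RPKM in dKO livers, against 2.26, 1.94 and 1.92 RPKM in control livers (log2 change -0.52 ± 0.15 (SE), limma adjusted p = 0.0439). The groups did not overlap, but the call was lost with any 1 library left out (limma adjusted p of 0.0674 to 0.126) and held after median-ratio scaling (0.0217). Wnt5b, a ligand known mainly for signalling without beta-catenin, rose to 1.23, 2.02 and 1.44 RPKM in dKO livers, against 0.535, 0.587 and 0.745 RPKM in control livers (limma adjusted p = 0.0351). It entered the test only through its dKO values and lost its call after median-ratio scaling (0.0856) and in each of the 5 fits with 1 library left out in which it was tested (0.0621 to 0.0991). Wnt9b, a ligand gene of central vein endothelium, was too low to test, at 0.293, 0.239 and 0.354 RPKM in dKO and 0.587, 0.308 and 0.201 RPKM in control libraries.

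Of 5 genes for Wnt secretion and release 0 were called higher and 1 lower, beside 17.8% and 2.17% of all tested genes. The gene called lower was Notum, a target of the pathway. It encodes an enzyme that removes the lipid from Wnt proteins and so inactivates them. Notum fell to 4.44, 3.28 and 1.79 RPKM in dKO livers, against 9.65, 10.7 and 9.08 RPKM in control livers (log2 change -1.43 ± 0.23 (SE), limma adjusted p = 0.00652). Every dKO library lay far below the controls, and dKO replicate 3 was the lowest.

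Among Frizzled and co-receptor genes 3 of 10 were called higher (30%) and 0 lower, beside 17.8% and 2.17% of all tested genes. Ror1, a receptor for Wnt5 proteins, rose to 1.52, 1.84 and 2.42 RPKM in dKO livers, against 0.586, 0.449 and 0.512 RPKM in control livers (limma adjusted p = 0.00973), and its control mean was under the level needed for the test. Fzd5 rose 2.53-fold and Fzd7 1.66-fold (limma adjusted p = 0.0142 and 0.00943). The call of Fzd5 was lost without control replicate 1 (0.0549) and that of Fzd7 after median-ratio scaling (0.0625). Lrp5, a co-receptor gene, stood at 17.4, 14.1 and 20.2 RPKM in dKO and 19.0, 15.8 and 18.2 RPKM in control libraries. Of 16 secreted and surface antagonists 2 could be tested, and of 11 Dishevelled genes and partners 7, and 0 of either kind were called.

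Of 18 other destruction complex and turnover genes, 3 were called higher and 0 lower, a share of 16.7% beside 17.8% of all genes. They were Ppp2r1a, a phosphatase scaffold gene, Csnk1d, a casein kinase gene, and Btrc, a gene of the ubiquitin ligase that recognises marked beta-catenin. Their dKO means were 1.496, 1.44 and 1.66 times the control means (limma adjusted p = 0.0182, 0.046 and 0.0473). Each lost its call without control replicate 1, control replicate 3 or dKO replicate 1 (0.0615 to 0.139). Csnk1d and Btrc also lost it without dKO replicate 3 (0.110 and 0.116), and Btrc without control replicate 2 (0.0832). After median-ratio scaling 0 of the 18 were called. Of 17 other nuclear partners 5 were called higher (29.4%) and 1 lower (5.88%), beside 17.8% and 2.17% of all tested genes. After median-ratio scaling 1 was called higher and 2 lower, where 7.89% and 5.55% of all tested genes were. Tcf7, which encodes a TCF factor and is itself a target of the pathway, fell to 1.27, 1.10 and 0.682 RPKM in dKO livers, against 3.40, 2.52 and 3.50 RPKM in control livers (log2 change -1.04 ± 0.18 (SE), limma adjusted p = 0.00818). As with Lgr5 and Notum, dKO replicate 3 held the lowest value. Ctnnbip1 and Cby1, which encode inhibitors that bind beta-catenin, rose 1.77-fold and 1.58-fold, Tle3, a corepressor gene, 1.86-fold, and Jup, which encodes the related junction protein plakoglobin, 1.78-fold (limma adjusted p = 0.0164, 0.0257, 0.0177 and 0.0257). Without control replicate 1 all 4 lost their call (0.0547 to 0.0817). Ctnnbip1, Cby1 and Jup also lost it without control replicate 3 (0.0622, 0.0889 and 0.0601). Ctnnbip1 and Cby1 lost it without dKO replicate 1 (0.057 and 0.0726), and Cby1 without dKO replicate 3 (0.0708). Of these 4, Tle3 kept its call after median-ratio scaling (0.0419), and the others did not (0.0573, 0.106 and 0.0837 for Ctnnbip1, Cby1 and Jup).

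**Figure D3:**
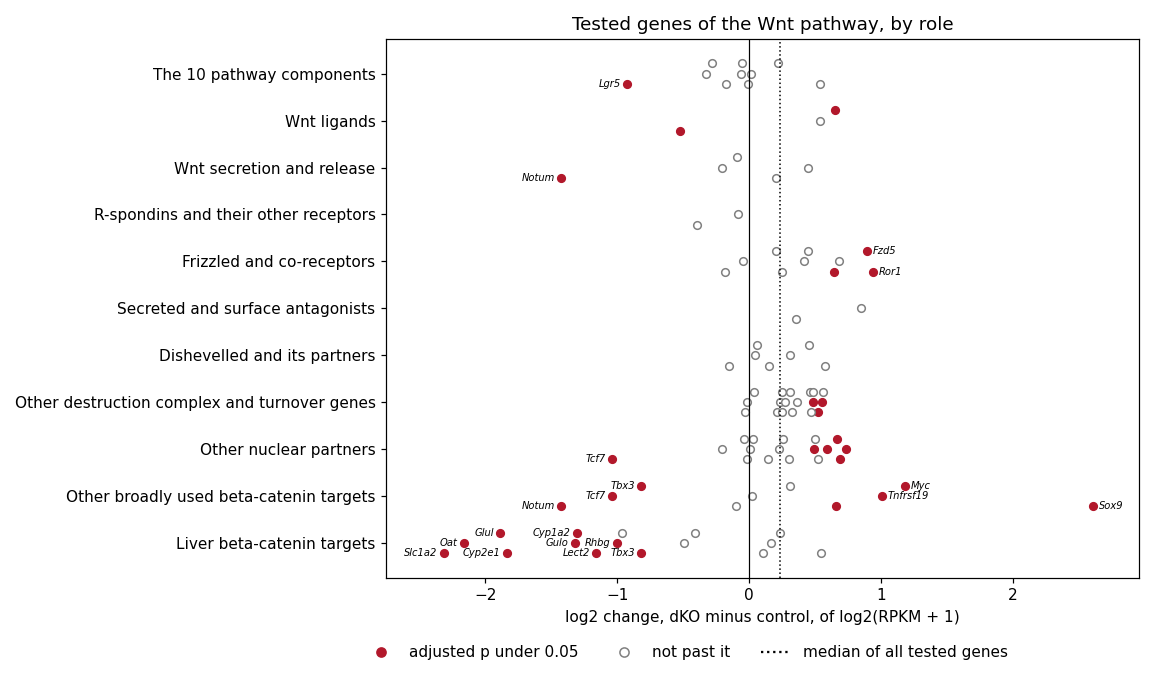
Log2 change (dKO minus control, horizontal axis) of every tested gene of the pathway by role, with filled points at a limma adjusted p under 0.05, names for called genes beyond 0.8 in size and a dotted line at the median of all tested genes (0.23). Of the 16 hepatocyte targets 9 lay among the decreases, while the 18 other destruction complex genes lay near the dotted line.

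Targets of beta-catenin did not move one way. Of 10 tested genes used widely as targets in other tissues, 4 were called higher (40%) and 3 lower (30%), beside 17.8% and 2.17% of all tested genes. Those lower were Notum, Tcf7 and Tbx3, and Tbx3 is also counted among the 16 hepatocyte targets below. Tbx3, a transcription factor gene of pericentral hepatocytes, fell to 5.93, 5.44 and 4.20 RPKM in dKO livers, against 12.2, 8.25 and 9.37 RPKM in control livers (limma adjusted p = 0.0157), a call lost without control replicate 1 (0.0553). Those higher were Sox9, Myc, Tnfrsf19 and Ccnd1. Targets that moved in either direction may also be controlled by other pathways, and the part of those was not tested. Ccnd1, the cyclin D1 gene, rose to 52.1, 50.2 and 52.7 RPKM in dKO livers, against 29.2, 36.2 and 32.1 RPKM in control livers (limma adjusted p = 0.013), a call lost after median-ratio scaling (0.0775) and without control replicate 1 or 3 (0.0534 and 0.0515). Myc rose 2.71-fold, with its call lost without control replicate 1 or dKO replicate 3 (limma adjusted p of 0.0737 and 0.0622), and Tnfrsf19, a receptor gene, rose 2.59-fold. Sox9 is also among the cholangiocyte markers that were higher in the same libraries, and their part in these values was not tested. Of 16 hepatocyte targets 0 were called higher and 9 lower (56.25%), beside the same shares of all tested genes. Both target lists were chosen with earlier results of these data known, so their shares are no independent support. The median log2 change of the 16 was -0.98. As many of them were called lower after median-ratio scaling, where 5.55% of all tested genes were. With 1 library left out 5 to 9 were called lower, the 5 without control replicate 1. Glul, the glutamine synthetase gene of pericentral hepatocytes, fell to 77.7, 50.7 and 48.0 RPKM in dKO livers, against 217, 230.2 and 199.5 RPKM in control livers (log2 change -1.89 ± 0.20 (SE), limma adjusted p = 0.00121). Gulo, an enzyme gene of vitamin C synthesis, and Rhbg, an ammonium transporter gene, fell to 0.3995 and 0.431 of their control means (limma adjusted p = 0.00263 and 0.00346). For each of these genes the groups did not overlap. Lect2, a gene of a protein secreted by hepatocytes, fell to 71.1, 47.4 and 52.4 RPKM in dKO livers, against 119, 138 and 124 RPKM in control livers (log2 change -1.16 ± 0.18 (SE), limma adjusted p = 0.00555). Of the same 16 genes, Aldh1a1, Cyp27a1, Ahr and Slc13a3 had log2 changes above 0, at 0.54, 0.23, 0.17 and 0.10, and were not called. The median of all tested genes was 0.23. After median-ratio scaling the changes of these genes were 0.25, -0.05, -0.10 and -0.16.

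**Figure D4:**
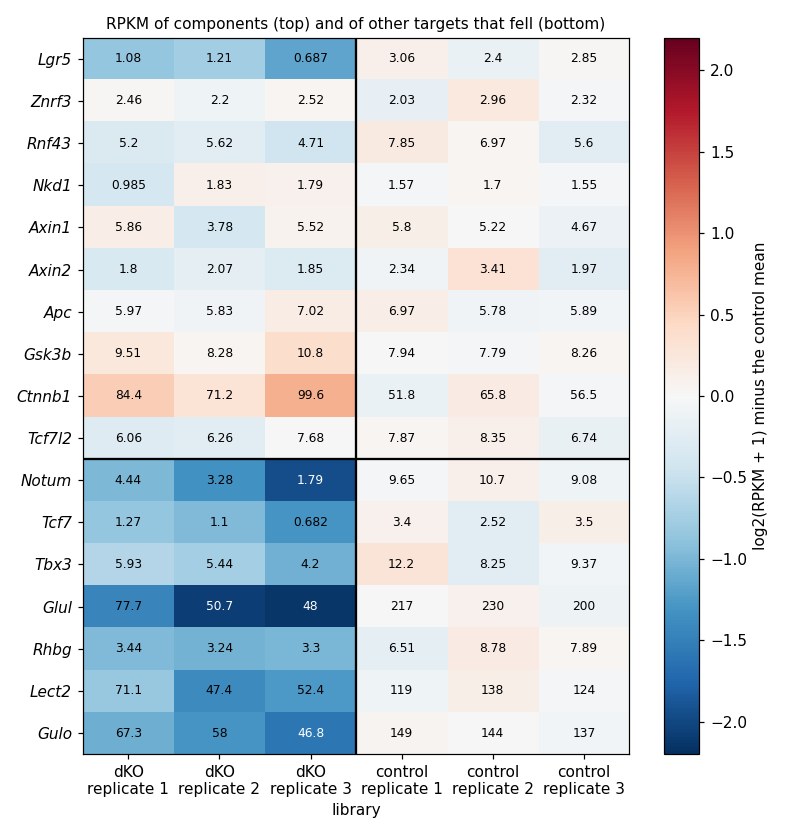
RPKM of the 10 components (above the line) and of 7 further genes called lower (below it) in each library, dKO left and control right, coloured by log2(RPKM + 1) minus the control mean. The 7 genes were chosen because they were called lower, as Lgr5 was, so their likeness to Lgr5 follows from that choice. Ctnnb1 stood above its controls in 3 of 3 dKO libraries, and Axin1, Apc, Nkd1 and Znrf3 showed mixed colours within a group.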

How the data were processed

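Liver RNA from 3 dKO and 3 control samples was measured, grouped by the sample titles. The authors aligned and counted the reads and deposited 1 value per gene symbol, read here as RPKM because low values of 3973 genes that have 1 annotated transcript fell near whole reads (73.5% to 80.9% within 0.15 of one at the best spacing, which is chosen to fit and so does not test the unit). The submitters' processing notes name mm9, and the aligner, counter, annotation and strand setting are not given in the sources used here. The GRCm38.p6 tables of RefSeq served for names and promoter windows only. The design had foreseen RPKM. The fit used log2(RPKM + 1) of the 11062 genes whose mean over the libraries reached 1 RPKM. It was made in R 4.3.3 by limma 3.58.1 with trend and robust moderation, and Benjamini-Hochberg adjustment ran over all of them. The fit was also run on simulated data with independent noise and no shift of the typical gene. That run does not cover the shift seen in these data. Single values used an exact permutation test over the 20 regroupings.

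The components and lists were chosen with earlier results of these data known. Beside the 10 components, up to 4 called genes per list and direction were named by smallest p, with Wnt2, Wnt9b, Rspo3 and Lgr4 whatever their call. Lrp5 and the nearest genes to Lgr5 were added after their values were seen. Amer1 was read as Fam123b and Trabd2b as Gm12824 through RefSeq synonyms. The alternatives tried were 0.1 as pseudocount, no filter, a minimum of 1 RPKM in 3 libraries, moderation without the robust option, a replicate block, 4 scalings, sample weights, each library left out and an adjusted p under 0.01. Median-ratio scaling together with the block or with a library left out was chosen after seeing the data. Tables were made in Python 3.11.15 (pandas 2.3.3), figures with matplotlib 3.10.9. Estimated read numbers cover counting error only.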

Additional observations from a re-analysis of the deposited data

How the results depend on the processing

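The decrease of Lgr5 held under all 17 alternatives that keep the threshold, with log2 changes of -1.42 to -0.81 and limma adjusted p of 0.000511 to 0.0415, and with median-ratio scaling and a library left out it was at most 0.0458. Components called lower numbered 2 after median-ratio scaling and 3 under quantile normalization, and those called higher 1 with sample weights (Ctnnb1) and 0 to 1 with a library left out. Directions turned where changes were small. Apc was -0.24 after median-ratio scaling, with or without a replicate block, -0.20 with upper-quartile scaling, -0.26 with quantile normalization and -0.011 with sample weights. Gsk3b was -0.039 after median-ratio scaling, with or without the block, -0.0013 with upper-quartile scaling and -0.021 with quantile normalization. With sample weights Axin1 was 0.14 and Znrf3 0.038. With a library left out, with or without median-ratio scaling, Apc ran from -0.31 to 0.086, Gsk3b from -0.091 to 0.31, Axin1 from -0.40 to 0.11, Znrf3 from -0.29 to 0.097 and Nkd1 from -0.35 to 0.11, and Lgr4, on deposited values, from -0.15 to 0.0015. The cause was not tested.

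Of all tested genes 1965 were higher and 240 lower, against 873 and 614 after median-ratio scaling, 953 and 540 with upper-quartile scaling, 727 and 554 with quantile normalization, 4133 and 601 with sample weights and 490 and 49 at an adjusted p under 0.01, and 145 were lower without a filter. With a library left out they numbered 763 to 1992 and 90 to 241. Both counts moved by over 1.5 times without control replicate 1, control replicate 3 or dKO replicate 3, the count of increases also without dKO replicate 1 and that of decreases also without dKO replicate 2. Other pathway genes called higher numbered 16, 6 after median-ratio scaling and 4 to 16 with a library left out, and those lower 12 and 7 to 11. Deviations of same-numbered libraries from their group means correlated at -0.08, -0.10 and -0.01. With 3 libraries per group this check cannot decide whether the replicate numbers pair the libraries. With the replicate block 1513 genes were higher and 202 lower, the components called stayed at 1 lower and 0 higher, and 11 other pathway genes were called in each direction. Of the genes named, Wnt2 (0.0868), Wnt5b (0.0639), Ppp2r1a (0.0506), Csnk1d (0.089) and Btrc (0.076) missed the threshold with the block, by limma adjusted p. Depth limits Nkd1 and Lgr5 most, which rested on an estimated 87 to 178 and 79 to 284 reads per library.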

Other observations

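Of the 136 further pathway genes, 49 were too low to test. Among them 6 had dKO values that lay all above the controls and 3 had dKO values all below. Of all 5845 untested genes above 0 in some library, 19.3% lay all above and 1.86% all below, and 41 of the 49 were above 0. Those named here were chosen after their values were seen. Sp5, a transcription factor gene and a target of beta-catenin, measured 0.218, 0.157 and 0.215 RPKM in dKO and 0.495, 0.512 and 0.387 RPKM in control livers. Rspo1, an R-spondin gene, measured 0.0498, 0.128 and 0.134 RPKM in dKO and 0.2201, 0.369 and 0.234 RPKM in control livers. Wnt4, a ligand gene, measured 1.29, 0.682 and 2.35 RPKM in dKO and 0.262, 0.253 and 0.304 RPKM in control livers. Fzd3, a Frizzled gene, measured 0.527, 0.394 and 0.914 RPKM in dKO and 0.0634, 0.159 and 0.165 RPKM in control livers. Lef1, a TCF family gene, was listed at 0.0372, 0.0573 and 0.0834 RPKM in dKO livers and at 0 in the 3 control livers. These 5 genes were picked from those whose groups did not overlap. That alone sets the exact two-sided permutation p to 0.1, the smallest that 3 against 3 libraries allow, so the test adds nothing here.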
